A study of Homo sapiens with 21 samples.

Results

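The genes described here are 45 interferon-stimulated genes (ISGs), taken from the 42339 genes of an RNA-seq count table by matching Ensembl identifiers to their symbols. All 45 had a row. The list was drawn up with results from these libraries already known, so the counts of members that moved are a description of the list and not a test of it. The cells are BT-549, an established triple-negative breast cancer (TNBC) line with the wild-type genotype and wild-type BRCA1, and each of 7 groups holds 3 cultures. The groups are 2D cells, 3D cells at passage 6, 3D cells at passage 6 treated with 0.75 uM GO-203, and the lines tet-MUC1shRNA at passage 6 and tet-MYCshRNA at passage 8, each with 0.1% DMSO as vehicle or with 500 ng/ml doxycycline (DOX). The 3D cells are serially passaged mammospheres, grown as spheres in ultra-low attachment plates in MammoCult medium. GO-203 is a peptide inhibitor directed at the cysteines through which the MUC1-C subunit forms dimers. In the tet lines DOX turns on an shRNA against MUC1 or MYC. Each tet line carries 1 shRNA, and no group carries a scrambled shRNA with DOX, so the effect of losing the target cannot be told apart from that of DOX or of shRNA expression.

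Interferons are secreted proteins that cells release on sensing viral or misplaced nucleic acid. Type I interferons bind the IFNAR1/IFNAR2 receptor, the kinases JAK1 and TYK2 phosphorylate proteins of the STAT family, and STAT2 and IRF9 become part of the ISGF3 complex. ISGF3 binds the interferon-stimulated response element (ISRE) in the promoters of ISGs, whose products block viral entry, translation and replication. In breast cancer cells the same genes can be expressed for long periods without infection, and MUC1-C and MYC have both been linked to their control.

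The promoters of the members were searched for the ISRE. Windows from 250 bases before to 50 bases after the gene start (RefSeq, GRCh38.p14) were found for 35 of the 45 members, and the ISRE core GAAANNGAAA, on either strand, lay in 24 of them (68.6%). Among all 35116 promoter windows of the same length it lay in 3.57%, and among the 72 windows of other interferon pathway genes, a list described further on, in 30.6%. The stretches below were chosen for holding the core and carry it in capitals, on the strand of the gene or as its reverse complement. The upper 6 belong to members that were lower in 3D than in 2D cells and higher on MYC silencing. They are IFIT1 (chr10:89392495-89392554, plus strand), ISG15 (chr1:1013365-1013424, plus strand), IFI44 (chr1:78649729-78649788, plus strand), OAS3 (chr12:112938414-112938473, plus strand), SAMD9 (chr7:93118081-93118140, minus strand) and PARP14 (chr3:122680779-122680838, plus strand). The lower 4 belong to members that were higher in 3D cells, which are EPSTI1 (chr13:42992257-42992316, minus strand), IFITM1 (chr11:313975-314034, plus strand), PLSCR1 (chr3:146544652-146544711, minus strand) and LGALS3BP (chr17:78979947-78980006, minus strand).
IFIT1: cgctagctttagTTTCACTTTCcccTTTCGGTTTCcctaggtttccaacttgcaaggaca
ISG15: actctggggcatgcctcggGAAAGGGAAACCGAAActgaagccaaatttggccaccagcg
IFI44: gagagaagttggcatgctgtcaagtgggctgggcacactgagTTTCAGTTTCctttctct
OAS3: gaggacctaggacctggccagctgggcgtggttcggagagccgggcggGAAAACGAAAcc
SAMD9: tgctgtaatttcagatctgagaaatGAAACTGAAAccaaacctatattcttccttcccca
PARP14: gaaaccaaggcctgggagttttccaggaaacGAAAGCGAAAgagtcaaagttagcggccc
EPSTI1: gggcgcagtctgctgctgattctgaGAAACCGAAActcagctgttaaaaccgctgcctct
IFITM1: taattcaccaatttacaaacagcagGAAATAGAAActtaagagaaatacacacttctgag
PLSCR1: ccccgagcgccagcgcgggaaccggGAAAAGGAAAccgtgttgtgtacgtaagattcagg
LGALS3BP: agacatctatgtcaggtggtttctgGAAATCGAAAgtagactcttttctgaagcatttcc

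Of the 25 windows of members lower in 3D cells 15 held the core, and 10 (CMPK2, HERC6, IFI35, OAS1, PARP9, RSAD2, SAMD9L, STAT2, UBE2L6 and XAF1) did not, while all 6 windows of members higher in 3D cells held it. The GAS element TTCNNNGAA, known from genes induced by interferon-gamma, lay in 9 of the 35 member windows (25.7%), against 23.6% of the pathway genes' windows and 7.66% of all windows. The E-box CACGTG, the site of MYC/MAX dimers, lay in 4 of 35 (11.4%), those of EIF2AK2, HERC5, IRF9 and ISG20, against 5.56% and 7.26%. A match is a run of letters, not evidence of binding, and the 10 members without a window are not described in this respect.

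**Figure D1:**
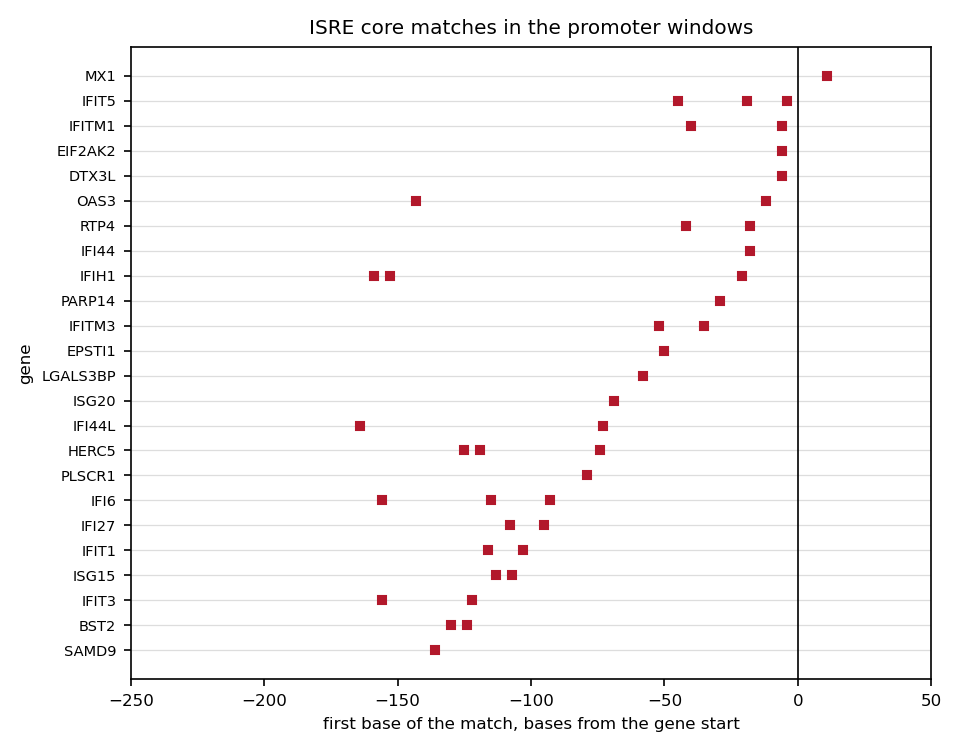
Position of each ISRE core match relative to the gene start (x axis, bases) in the promoter windows of the members that hold one (y axis, 1 gene a row). The core was present in 24 of 35 member windows, mostly upstream of the start.

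The targeted genes were measured in every library, in CPM (counts relative to the library total) scaled by TMM factors over all 21 libraries. MUC1 stood at 101, 83.2 and 86.6 CPM in vehicle-treated and at 19.7, 21.2 and 23.3 CPM in DOX-treated tet-MUC1shRNA cells, a 4.16-fold decrease. MYC stood at 439, 418 and 386 CPM in vehicle-treated and at 244, 279 and 297 CPM in DOX-treated tet-MYCshRNA cells, a 1.54-fold decrease. The MYC knockdown was therefore partial at the RNA level, and MUC1 RNA rose 2.39-fold in the same cells. Both targets were higher in 3D than in 2D cells, by 1.93 (MUC1) and 2.76 (MYC) on the log2 scale. Library totals ran from 38026597 to 99751717 counts. The labels give the tissue as epithelial breast, but the summed level of EPCAM, CDH1, KRT8, KRT18 and KRT19 was 0.0403 to 2.72 CPM across libraries, while the mesenchymal marker VIM exceeded 1000 CPM in every group. Immune markers summed to 0.294 to 1.80 CPM. The endothelial markers summed to 0.0348 to 0.205 CPM in 2D cells and to 2.73 to 10.1 CPM in the other groups, nearly all of it PECAM1, and their part in the results was not tested. In bulk libraries fewer cells expressing a gene and less RNA per cell cannot be told apart.

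Member levels were highest after MYC silencing and in 2D cells. The median member stood at 7.98 ± 0.961 CPM (SD, n = 3) in DOX-treated tet-MYCshRNA cells and at 5.82 ± 1.24 CPM in 2D cells. In the other 5 groups it was between 0.935 ± 0.0358 CPM (DOX-treated tet-MUC1shRNA cells) and 2.0 ± 0.0952 CPM (GO-203-treated 3D cells). Of the 45 members, 29 had their highest mean in DOX-treated tet-MYCshRNA cells, 17 of them without overlap with any other library, and 10 had it in 2D cells. A low-count filter over all libraries kept 42 members among 22652 genes. Of these 42, 26 were highest in DOX-treated tet-MYCshRNA cells, against 19% of the genes, with 17 free of overlap, against 7.77%, and 10 were highest in 2D cells, against 20%. The lowest mean of the kept members fell in vehicle-treated tet-MYCshRNA cells for 16, against 11.7% of the genes, and in DOX-treated tet-MUC1shRNA cells for 12, against 16.9%. Per kilobase of exon, IFITM3, an endosomal protein that blocks viral entry, was the most abundant member in every group, from 74.8 CPM per kb in 2D cells to 346 in vehicle-treated tet-MUC1shRNA cells. It alone took 20.3% to 69.0% of the members' counts, so a sum over the members follows IFITM3 and is not used here. IFITM3 has 9 named pseudogenes and close paralogs in IFITM1 and IFITM2, and how multimapping reads were counted is not stated.

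**Figure D2:**
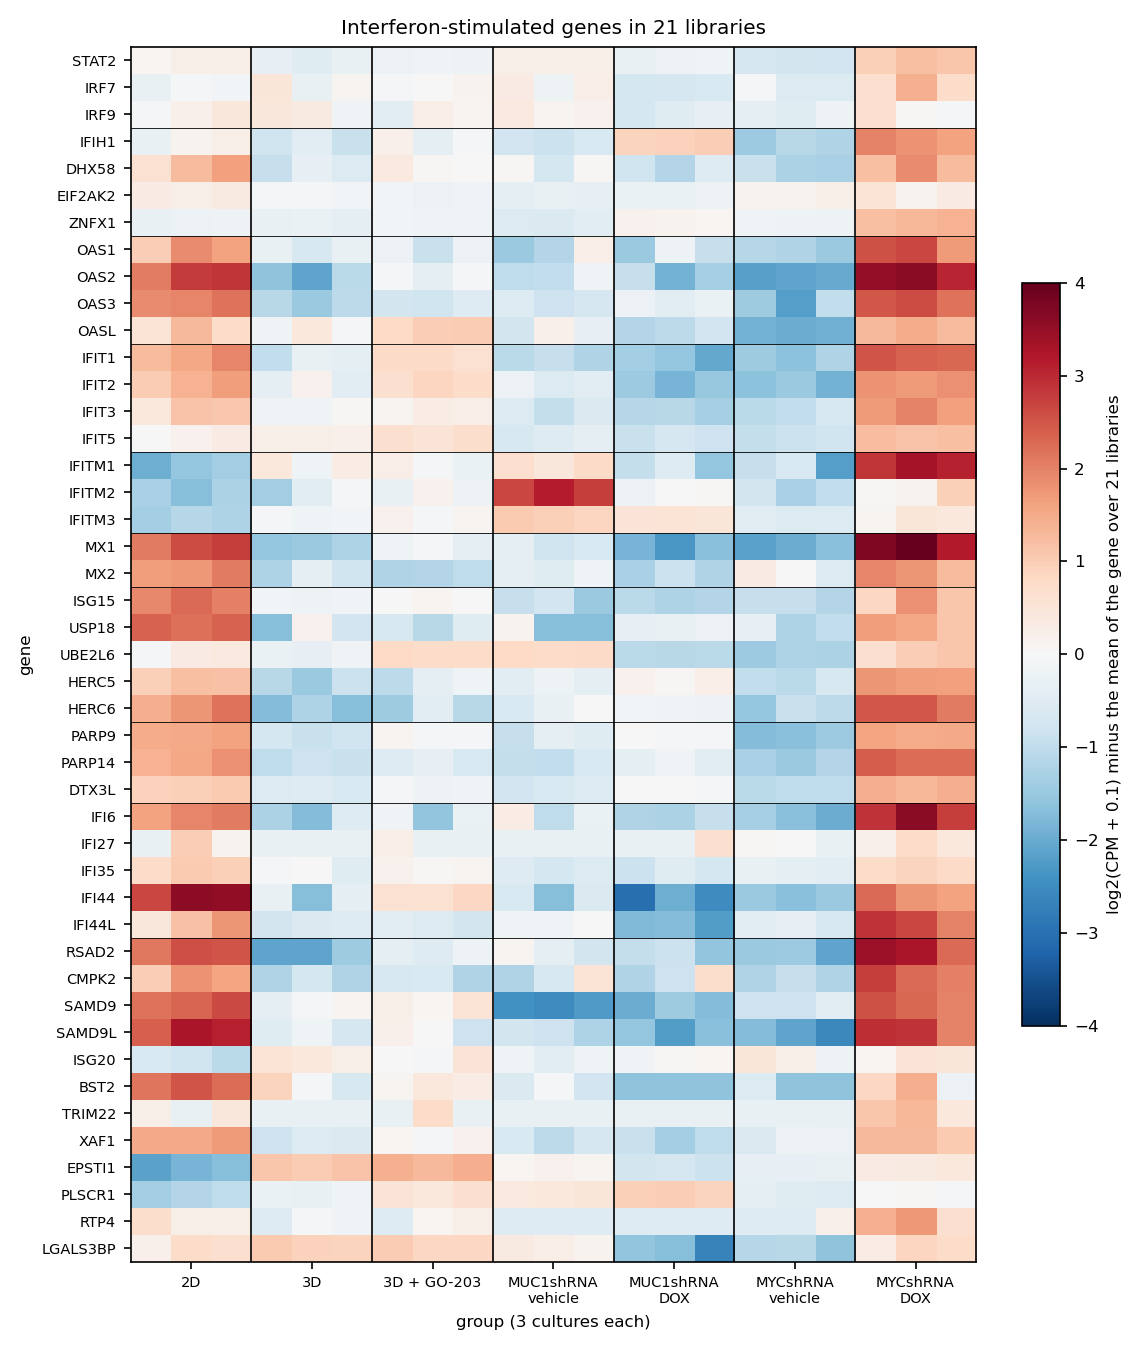
Level of the 45 members (rows, grouped by role) in the 21 libraries (columns, 3 per group), as log2 CPM with a pseudocount of 0.1 CPM. The mean of each gene over the 21 libraries is subtracted, so colours do not compare levels between rows. Most rows have their highest values in the 2D and DOX-treated tet-MYCshRNA libraries, whose median members stood at 5.82 and 7.98 CPM, while the IFITM3, EPSTI1 and PLSCR1 rows follow other orders.

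The first comparison, 3D against 2D cells, asks how the ISGs differ between serially passaged mammospheres and the monolayer. The study grew the 2D cells in RPMI medium with fetal bovine serum and insulin. Medium, attachment and serial passage therefore change together here and cannot be told apart. Of 42 members tested, 31 were lower and 7 higher in 3D cells at an adjusted p below 0.1 (edgeR's quasi-likelihood test), against 31.7% lower and 32% higher among all 19190 genes tested. With the further condition of a log2 fold change beyond 1.5, 24 members were lower and 2 higher, against 9.29% and 6.9% of all genes. The median member fell by 2.0 on the log2 scale and the median gene by 0.0074. The mitochondrially encoded share of counts was 5.22% to 5.24% in 2D and 2.31% to 2.72% in 3D cells. The summed epithelial markers were at 1.74 to 1.95 CPM in 2D and 0.664 to 0.930 CPM in 3D cells, and the immune markers at 1.09 to 1.80 and 0.388 to 0.703 CPM. Of the mesenchymal markers FN1 was at 441 to 465 CPM in 2D and 6383 to 6983 CPM in 3D cells, and ZEB1 at 88.0 to 97.5 and 205 to 209 CPM. The part of these shifts in the changes below was not tested.

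All 4 OAS members (2'-5' oligoadenylate synthetases and OASL, sensors of double-stranded RNA) and both MX members were lower in 3D cells, as were RSAD2 and CMPK2. OAS2 stood at 3.77, 6.4 and 6.67 CPM in 2D cells and at 0.208, 0.117 and 0.341 CPM in 3D cells, with a log2 fold change of -4.61 ± 0.32 (SE, adjusted p = 2.35e-09 from edgeR). Its 2D libraries were far above its 3D libraries, with replicate 1 the lowest of the 2D cultures. MX1, a GTPase that blocks influenza and other viruses, had 5.28, 7.65 and 8.48 CPM in 2D and 0.332, 0.351 and 0.434 CPM in 3D cells, which is 19-fold lower. RSAD2 (viperin), an enzyme that makes a chain-terminating nucleotide, had 1.77, 2.47 and 2.36 CPM in 2D cells. In 3D cells its libraries held 4 counts in all, and the ratio was 95.8 (95% counting interval 26.1 to 797, exact binomial on read pairs). CMPK2, the kinase beside it on the chromosome, had 90 counts in 2D and 2 in 3D cells, a ratio of 47.9 (8.17 to 1933). These ratios are imprecise, but their intervals lie well above 1.

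The ISG15 system, which attaches the ubiquitin-like protein ISG15 to targets, was lower in all 5 members. ISG15 itself fell from 9.54, 12.1 and 10.3 CPM to 2.26, 2.15 and 2.25 CPM (log2 fold change -2.27 ± 0.14). Its protease USP18 and the ligase HERC6 were lower by 3.62 and 3.90 on the log2 scale, the ligase HERC5 by 2.36, and the conjugating enzyme UBE2L6 by 0.49. UBE2L6 thus moved far less than the other members of its pathway, from 10.1, 13.0 and 13.8 CPM to 8.64, 8.32 and 9.36 CPM. PARP14, PARP9 and DTX3L, a group of ADP-ribosyltransferases and a ubiquitin ligase that act together, were lower by 2.53, 2.36 and 1.55. PARP14 had 37.9, 42.9 and 51.8 CPM in 2D and 7.10, 8.12 and 7.81 CPM in 3D cells, and no 3D library approached a 2D library.

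Other members lower in 3D cells were SAMD9 (14.3 to 2.44 CPM, group means), SAMD9L (4.62 to 0.347), XAF1 (7.85 to 1.58), IFI44 (10.8 to 0.594), IFI44L (3.53 to 0.920), IFI6 (3.79 to 0.394), IFI35 (8.31 to 3.84), BST2 (1.41 to 0.248) and MX2 (1.11 to 0.0969). IFIT1, which binds viral RNA lacking cap methylation, and its relatives IFIT2 and IFIT3 were lower by 2.18, 1.62 and 1.03 on the log2 scale, whereas IFIT5 stood at 14.9 CPM in 2D and 15.5 CPM in 3D cells. Among the cytoplasmic RNA sensors IFIH1 (MDA5) and DHX58 (LGP2) were lower by 0.79 and 2.05, and the kinase EIF2AK2 (PKR) by 0.38. ZNFX1, at 109 and 104 CPM, did not pass the test. OASL, a further member with a modest change (-0.88), lost its call without 2D replicate 2 (-0.596, adjusted p = 0.135 from edgeR).

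The 7 higher members went the other way, and the spread within groups was small beside the change for most of them. EPSTI1, an interferon-inducible gene first described in epithelial-stromal contact, had 9.14, 10.9 and 12.2 CPM in 2D and 87.3, 80.5 and 88.8 CPM in 3D cells, a 7.89-fold rise (log2 fold change 2.98 ± 0.09, adjusted p = 5.84e-14 from edgeR). All 3 IFITM members were higher, IFITM3 from 197, 228 and 214 CPM to 488, 454 and 466 CPM. IFITM1 rose from 0.333, 0.469 and 0.547 CPM to 2.14, 1.41 and 1.98 CPM. IFITM2 was below 1 CPM in every library of both groups, and its call (log2 fold change 1.09) was lost without 2D replicate 2 (adjusted p = 0.136 from edgeR), without 3D replicate 3 (adjusted p = 0.235 from edgeR) and in DESeq2 (adjusted p = 0.101). PLSCR1, a phospholipid scramblase, rose by 0.93 on the log2 scale, the exonuclease ISG20 by 1.28 and the secreted glycoprotein LGALS3BP by 0.41.

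Of the 3 transcription factors among the members STAT2 was lower. It went from 26.8, 29.6 and 29.7 CPM in 2D cells to 20.2, 18.2 and 20.5 CPM in 3D cells (log2 fold change -0.55 ± 0.08). IRF9 and IRF7 did not pass the test, with log2 fold changes of 0.02 ± 0.23 and 0.28 ± 0.22. Without 3D replicate 2 IRF7 passed as higher (0.47, adjusted p = 0.0705 from edgeR). Their group means lay between 2.0 and 2.62 CPM in both.

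**Figure D3:**
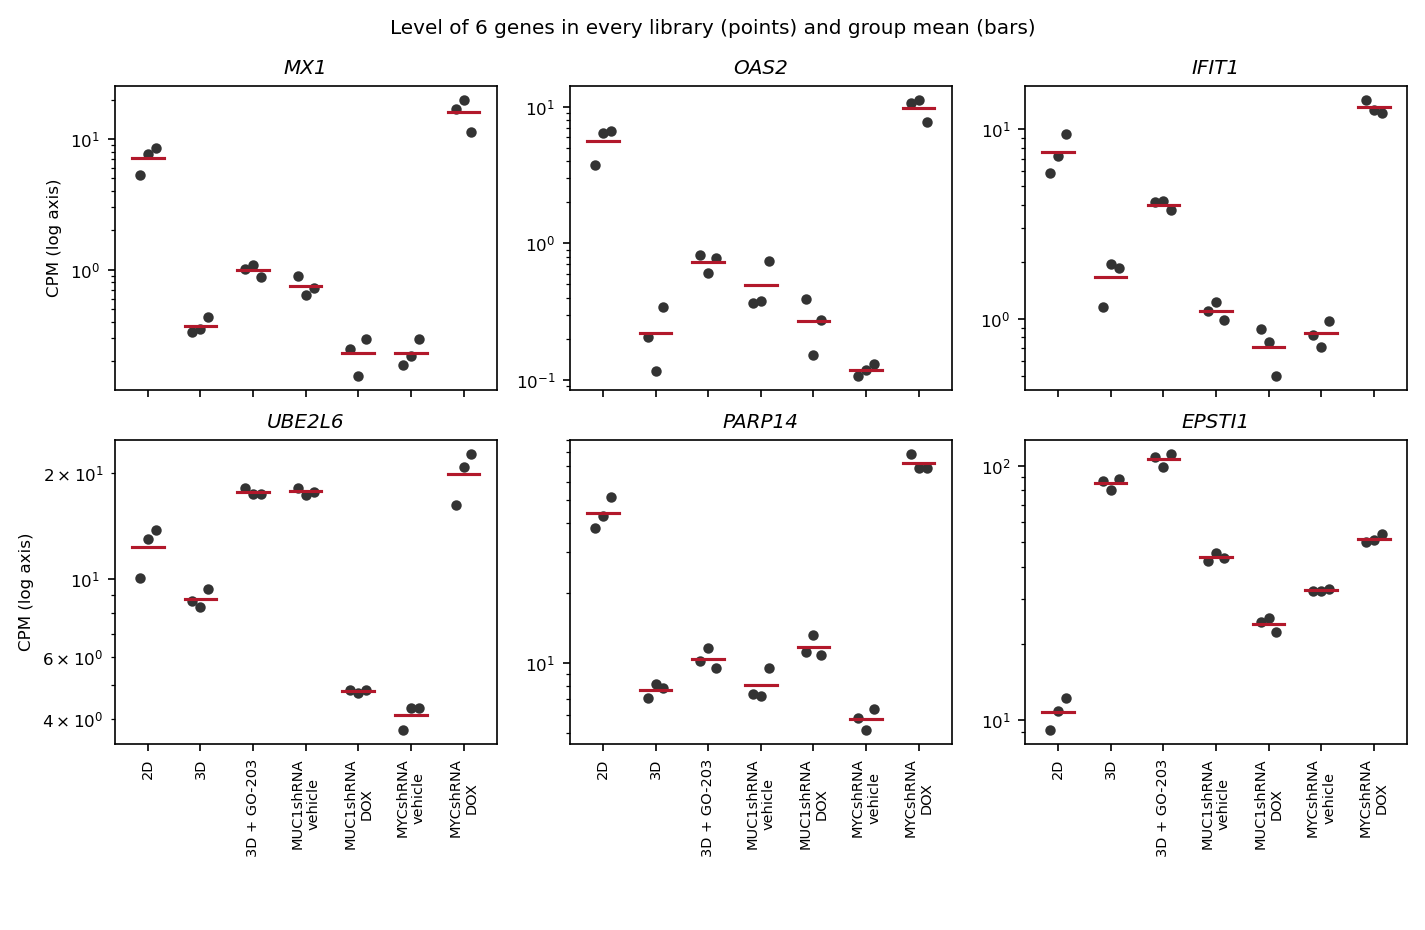
CPM (y axis, log scale) of MX1, OAS2, IFIT1, UBE2L6, PARP14 and EPSTI1 in each library (points) of the 7 groups (x axis), with the group mean as a bar. MX1 and OAS2 fall from 2D to 3D cells and are highest in DOX-treated tet-MYCshRNA cells, whereas EPSTI1 has its lowest libraries, 9.14 to 12.2 CPM, in 2D cells.

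On MUC1 silencing in tet-MUC1shRNA mammospheres members moved in both directions. Of 35 tested, 18 were lower and 10 higher with DOX than with vehicle, against 31.6% lower and 30.7% higher among all 19220 genes tested. The share of higher members (28.6%) was thus near that of all genes, and the share of lower members (51.4%) was above it. Beyond a log2 fold change of 1.5 there were 7 lower and 1 higher, against 3.08% and 5.74% of all genes. The median member fell by 0.44, while the median gene had a log2 fold change of 0.024. The mitochondrially encoded share of counts was 2.60% to 2.78% with vehicle and 6.36% to 6.72% with DOX, and the summed epithelial markers were at 0.0522 to 0.141 CPM with vehicle and 2.38 to 2.72 CPM with DOX, mostly KRT8 and KRT18, with EPCAM at or near 0 and KRT19 at 0. ZEB1 was at 306 to 339 CPM with vehicle and 115 to 122 CPM with DOX, and FN1 at 9965 to 11016 and 7027 to 7298 CPM. VIM went the other way, from 1076 to 1133 CPM with vehicle up to 1164 to 1252 CPM with DOX. The summed endothelial markers were at 4.03 to 4.23 CPM with vehicle and 2.73 to 3.41 CPM with DOX. Their part in these changes was not tested. Scaling by library size alone shifts the median gene by 0.17 on the log2 scale and leaves 14 members lower and 11 higher, DESeq2 found 17 lower and 7 higher, and a single fit of all 21 libraries 23 lower and 8 higher. No member that passed the test turned its sign under any scaling tried.

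The members lower on MUC1 silencing included all 3 transcription factors, all 3 IFITM members and all 4 IFIT members. STAT2 stood at 29.7, 29.3 and 29.8 CPM with vehicle and at 20.6, 21.6 and 22.1 CPM with DOX (log2 fold change -0.44 ± 0.06), and IRF7 and IRF9 fell by 0.84 and 0.75. IFITM2 had 6.71, 9.39 and 7.12 CPM with vehicle and 0.814, 0.975 and 0.999 CPM with DOX, which is 8.20-fold lower (log2 fold change -3.04 ± 0.17, adjusted p = 4.80e-12 from edgeR). The high level of IFITM2 with vehicle was found in no other group, where its libraries ranged from 0.226 to 1.96 CPM. IFITM1 fell by 1.64 and IFITM3 by 0.41. UBE2L6 had 18.1, 17.3 and 17.7 CPM with vehicle and 4.85, 4.74 and 4.86 CPM with DOX, 3.62-fold lower, with replicates that nearly coincide. LGALS3BP fell by 2.18, IFI44 by 2.17, IFI44L by 2.06, MX1 by 1.69, IFIT2 by 1.28 and EPSTI1 by 0.84 on the log2 scale. The calls of IFIT3 (adjusted p = 0.111), IFIT1 (adjusted p = 0.214), IFIT5 (adjusted p = 0.477) and OASL (adjusted p = 0.129) were lost when edgeR scaled by library size alone.

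The members higher on MUC1 silencing included the complete PARP9, PARP14 and DTX3L group and 3 of the 4 RNA sensors. IFIH1, the sensor of long double-stranded RNA, had 1.83, 1.69 and 2.05 CPM with vehicle and 5.96, 6.07 and 6.36 CPM with DOX, a 3.34-fold rise (log2 fold change 1.74 ± 0.14, adjusted p = 1.45e-09 from edgeR). DTX3L, PARP9 and PARP14 rose by 0.65, 0.56 and 0.56, ZNFX1 by 0.68, HERC5 by 0.55 and PLSCR1 by 0.53. SAMD9 rose by 0.85, a call lost in edgeR without vehicle replicate 2 (adjusted p = 0.111) or DOX replicate 2 (adjusted p = 0.181). DESeq2 passed neither SAMD9 (adjusted p = 0.136) nor EIF2AK2, OAS3, OASL and IFIT1 (adjusted p from 0.124 to 0.236). The changes of EIF2AK2 (0.11) and OAS3 (0.40) also lost their calls without some libraries, as did those of IFI6, IFIT1, IFIT5 and OASL among the lower members. For OAS3 each library but vehicle replicate 1 and DOX replicate 2 did so, with adjusted p between 0.143 and 0.249 from edgeR. For OASL it was each but vehicle replicate 1 and DOX replicate 3, and its highest adjusted p was 0.320 in edgeR without vehicle replicate 2. IFI6 lost its call in edgeR without vehicle replicate 1 (adjusted p = 0.236), and EIF2AK2 without vehicle replicate 1 (adjusted p = 0.118) or DOX replicate 3 (adjusted p = 0.166). IFIT5 lost it without vehicle replicate 3 (adjusted p = 0.175) or DOX replicate 1 (adjusted p = 0.154), and IFIT1, whose own adjusted p from edgeR was 0.0902, without any library but vehicle replicate 3 or DOX replicate 1 (0.136 to 0.247).

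On MUC1 silencing 7 tested members did not pass, among them ISG15 (1.16 CPM with vehicle and 1.05 with DOX, group means), OAS2 (0.497 and 0.272), XAF1 (1.45 and 1.15) and HERC6 (0.616 and 0.688). OAS2 and DHX58 passed as lower under some alternatives, with adjusted p from 0.0507 to 0.0923 in edgeR, among them leaving out vehicle replicate 1 or DOX replicate 1 for OAS2 and vehicle replicate 2 or DOX replicate 3 for DHX58. ISG20 passed as higher with library size alone (0.46, adjusted p = 0.0443 from edgeR). The other 10 members were too low to test, with no library above 0.366 CPM.

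GO-203 raised a broad set of members by modest amounts. Of 38 tested, 23 were higher and 0 lower in GO-203-treated than in control 3D cells, against 11.1% higher and 12.9% lower among all 18488 genes. None was lower at an unadjusted p below 0.05 either, and DESeq2, which gave RSAD2 no adjusted p, found 17 higher and 0 lower. Beyond a log2 fold change of 1.5 the 3 members were RSAD2, OAS2 and IFI44, against 0.498% of all genes. The median member rose by 0.47 and the median gene by 0.015. The mitochondrially encoded share was 2.31% to 2.72% in control and 3.34% to 4.4% in GO-203-treated cells, and ZEB1 was at 205 to 209 and 177 to 200 CPM, while FN1 (6383 to 6983 and 6668 to 6983 CPM) overlapped. The part of these shifts in the rise was not tested. Without 3D replicate 2 only 1 member passed both limits, and without 3D replicate 3 there were 4. The 3D libraries are the same as those set against 2D cells above, so the 2 comparisons are not independent. The GO-203 libraries lack values for a different set of genes than the 3D libraries, and whether both were processed together is not given.

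By role, the higher members were all 3 tested OAS members, all 4 IFIT members, MX1, and the PARP9, PARP14 and DTX3L group. OAS2 went from 0.208, 0.117 and 0.341 CPM to 0.814, 0.609 and 0.782 CPM (log2 fold change 1.72 ± 0.43). MX1 went from 0.332, 0.351 and 0.434 CPM to 1.02, 1.09 and 0.883 CPM, 2.7-fold higher. These levels remained well below the 5.28 to 8.48 CPM of MX1 in 2D cells. IFIT1 rose by 1.29 from 1.16, 1.95 and 1.86 CPM to 4.12, 4.16 and 3.74 CPM, and IFIT2 by 0.99. UBE2L6 went from 8.64, 8.32 and 9.36 CPM to 18.1, 17.4 and 17.4 CPM (log2 fold change 1.04 ± 0.09, adjusted p = 2.48e-08 from edgeR), with no overlap between groups. PARP9 rose by 0.82, PLSCR1 by 0.78, XAF1 by 0.79, OASL by 0.96 and IFI44 by 1.52. RSAD2 had 34 counts with GO-203 and 4 without, a ratio of 10.0 with a counting interval from 2.37 to 89.3.

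Of the transcription factors only STAT2 passed the test. It was higher by 0.20 ± 0.08, with an adjusted p of 0.0798 from edgeR that rose above the limit without any library but 3D replicate 3 (0.105 to 0.267). IRF7 (-0.07 ± 0.21) and IRF9 (-0.20 ± 0.24) did not pass. DESeq2 did not pass STAT2, OAS3, IFIT3, HERC5 or SAMD9 (adjusted p from 0.114 to 0.157). Of the 23 higher members, 7 others lost their call in edgeR without some library. OAS3 and IFIT3 did so for each library but 3D replicate 3, HERC5 for each but 3D replicate 3 and GO-203 replicate 1, and SAMD9 for each but 3D replicate 3 and GO-203 replicate 2, with adjusted p from 0.106 to 0.380. ZNFX1 did so in edgeR without 3D replicate 3 (adjusted p = 0.146) or GO-203 replicate 1 (adjusted p = 0.134), and IFIH1 (adjusted p = 0.125) and IFITM3 (adjusted p = 0.105) without GO-203 replicate 1. BST2, IFI44L, IFITM1, IFITM2, ISG15, ISG20, LGALS3BP and SAMD9L were among the 15 tested members that did not pass.

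Blocking MUC1-C with GO-203 and silencing MUC1 are both ways of targeting MUC1, and the 2 comparisons share no library. Of the 35 members tested in both, 9 were higher in both, 11 were lower on MUC1 silencing and higher with GO-203, and 0 were lower in both. Among all 17526 genes tested in both, these combinations took 4.71%, 3.92% and 6.88%. The 11 are EPSTI1, IFI44, IFIT1, IFIT2, IFIT3, IFIT5, IFITM3, MX1, OASL, STAT2 and UBE2L6. UBE2L6 went from 17.3 to 18.1 CPM down to 4.74 to 4.86 CPM on MUC1 silencing, and from 8.32 to 9.36 CPM up to 17.4 to 18.1 CPM with GO-203. MUC1 RNA itself fell on silencing and was 1.26-fold higher with GO-203. With some library left out, IFIT1, IFIT5 and OASL of the 11 lost their call on MUC1 silencing. IFIT3, IFITM3 and STAT2 lost theirs with GO-203. Of the 9, HERC5, IFIH1, OAS3, SAMD9 and ZNFX1 lost theirs with GO-203, and OAS3 and SAMD9 also on MUC1 silencing. The 2 comparisons differ in line, in starting levels and in the use of DOX and an shRNA. The difference between the 2 effects was not tested for any gene.

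MYC silencing raised nearly every member that could be tested. Of 41 tested, 39 were higher and 0 lower with DOX than with vehicle, against 30.3% higher and 28.1% lower among all 19951 genes. None was lower at an unadjusted p below 0.05, and DESeq2, which keeps more low genes, found 42 higher and 0 lower. Beyond a log2 fold change of 1.5 there were 32 members higher and 0 lower, against 7.06% and 3.39% of all genes. The median member rose by 3.06 and the median gene by 0.0088, and in 39 members the 3 DOX libraries lay above all 3 vehicle libraries, against 29.1% of all genes, and in 0 they lay below, against 30.4%. The summed endothelial markers were at 6.42 to 7.16 CPM with vehicle and 8.66 to 10.1 CPM with DOX, FN1 at 5096 to 5314 and 11497 to 13252 CPM, and ZEB1 at 243 to 260 and 270 to 297 CPM. VIM went the other way, from 2437 to 2486 CPM with vehicle down to 2114 to 2375 CPM with DOX. The mitochondrially encoded share was 3.37% to 4.08% with vehicle and 3.96% to 5.07% with DOX, and the part of these shifts in the rise was not tested.

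OAS2 had 0.106, 0.118 and 0.131 CPM with vehicle and 10.6, 11.2 and 7.68 CPM with DOX, an 81.1-fold rise (log2 fold change 6.34 ± 0.24, adjusted p = 2.16e-08 from edgeR). MX1 had 0.186, 0.217 and 0.294 CPM with vehicle and 16.8, 19.9 and 11.2 CPM with DOX, 68.6-fold higher. DOX replicate 3 was the lowest of its group for both genes, yet far above each vehicle library. OAS1 (4 against 222 counts) had a ratio of 74.7 with a counting interval from 20.2 to 624, CMPK2 (2 against 182) of 122 (21.4 to 4890), RSAD2 (10 against 585) of 78.7 (33.3 to 244) and SAMD9L (10 against 628) of 84.5 (35.8 to 262). These genes were close to absent from vehicle-treated cells, so the size of their rise is known only to within those intervals.

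IFIT1 went from 0.825, 0.709 and 0.980 CPM to 14.3, 12.7 and 12.1 CPM, IFIT2 and IFIT3 rose by 3.56 and 2.71 on the log2 scale, and IFIT5 by 2.06. PARP14 went from 5.83, 5.16 and 6.37 CPM to 78.9, 68.9 and 68.9 CPM, 12.3-fold higher, and PARP9 and DTX3L rose by 3.15 and 2.43. The members that were higher in 3D than in 2D cells, except ISG20, rose as well. IFITM1, the plasma-membrane member of its family, went from 0.785, 0.995 and 0.261 CPM to 12.1, 16.8 and 14.1 CPM, 19.9-fold higher, and EPSTI1 from 32.2, 32.2 and 32.8 CPM to 50.3, 51.1 and 53.8 CPM. IFITM3 and PLSCR1 rose by 0.84 and 0.44. In the ISG15 system ISG15, USP18, UBE2L6, HERC5 and HERC6 rose by 2.39, 3.18, 2.25, 2.67 and 3.83. IFI6 rose by 5.23, IFI44 by 3.83, IFI44L by 3.11, SAMD9 by 3.07 and XAF1 by 1.57.

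The transcription factors and sensors were among the risers. STAT2 had 15.7, 15 and 14.9 CPM with vehicle and 48.7, 57.7 and 54.6 CPM with DOX, 3.48-fold higher, its highest level in any group. IRF7 rose by 1.37. IRF9 rose by 0.61 ± 0.24 (adjusted p = 0.0577 from edgeR), a call lost in edgeR without vehicle replicate 1 (adjusted p = 0.136), vehicle replicate 2 (adjusted p = 0.183) or DOX replicate 1 (adjusted p = 0.223) and with the replicate number as a block (adjusted p = 0.104). IFIH1 and DHX58 rose by 3.12 and 3.06, and ZNFX1 went from 111 to 116 CPM with vehicle to 295 to 337 CPM with DOX. EIF2AK2 (0.15 ± 0.10) and ISG20 (0.17 ± 0.21) did not pass.

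**Figure D4:**
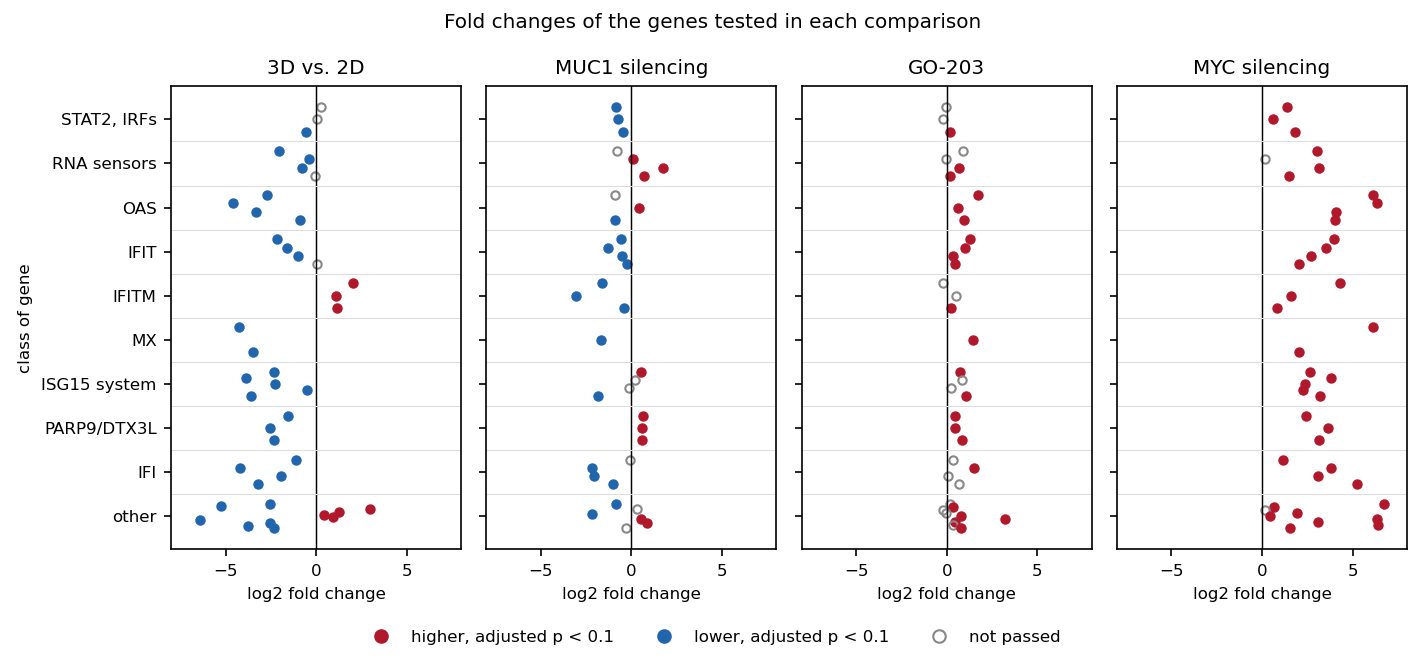
Log2 fold change of each tested member (points) by role (y axis) in the comparisons, with a line at 0. In MYC silencing the tested members lie above 0, from 0.15 to 6.73, in 3D against 2D cells most lie below, and in MUC1 silencing the IFIT and IFITM members lie below and the PARP9, PARP14 and DTX3L members above 0.

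The 3D against 2D and MYC silencing comparisons share no library. Of the 30 members lower in 3D cells and tested on MYC silencing, 29 (96.7%) were higher on MYC silencing, which is 74.4% of the 39 that rose there. Of the 7 higher in 3D cells, 6 (85.7%) also rose on MYC silencing. Over all 41 tested members the share of risers was 95.1%. Among all genes, 47.3% of those lower and 26% of those higher in 3D cells were higher on MYC silencing. MYC RNA was at 78.4 to 90.5 CPM in 2D cells and at 553 to 601 CPM in 3D cells. In tet-MYCshRNA cells it was at 386 to 439 CPM with vehicle and at 244 to 297 CPM with DOX, above its 2D level. The tet-MUC1shRNA cells had like MYC levels, 239 to 255 CPM with vehicle and 273 to 294 CPM with DOX, and median members of 1.55 and 0.935 CPM. These groups differ in line, passage and treatment, and a relation of member levels to MYC RNA was not tested.

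The difference between the silencing effects was tested as an interaction over the 12 tet-MUC1shRNA and tet-MYCshRNA libraries. Of 42 members tested, 38 had a lower response to MUC1 than to MYC silencing and 0 a higher one, against 26.9% and 26% of all 21585 genes. The 42 include OAS1, MX2, USP18, RSAD2, CMPK2, SAMD9L and BST2, which were too low to test on MUC1 silencing. BST2 was too low on MYC silencing as well. OAS1 had 222 counts in DOX-treated tet-MYCshRNA cells and 13, 12 and 4 in the other groups of these lines, so its difference rests mainly on 222 counts of that group. None was higher at an unadjusted p below 0.05 or in DESeq2. Beyond a difference of 1.5 there were 33 lower and 0 higher, against 8.56% and 7.59% of all genes. The median difference was -3.39 for members and 0.049 for all genes. The 35 members tested in both lines included 18 that were lower on MUC1 and higher on MYC silencing, and each of the 18 passed the interaction test. They make up all 18 (100%) of the members lower on MUC1 silencing and 54.5% of the 33 higher on MYC silencing. Over all 35 members the share higher on MYC silencing was 94.3%. Among all 18198 genes tested in both lines 10.7% were lower on MUC1 and higher on MYC silencing, which is 32.6% of those lower on MUC1 silencing. A further 9 members rose in both lines, against 11.5% of all genes, and 0 fell in both, against 12.7%. The interaction was -7.83 ± 0.42 for MX1 (adjusted p = 6.41e-11 from edgeR), -7.27 for OAS2, -2.26 for STAT2, -2.22 for IRF7 and -1.37 for IRF9. EIF2AK2, ISG20, PLSCR1 and USP18 did not pass. USP18 had 10, 0 and 0 counts in the vehicle-treated tet-MUC1shRNA libraries, and its interaction of -2.09 turned to 3.24 (adjusted p = 0.187 from edgeR) without replicate 1 of them. It passed as lower with no filter (adjusted p = 0.0987 from edgeR), without replicate 2 (adjusted p = 0.071) or 3 (adjusted p = 0.0574) of that group, and without tet-MYCshRNA vehicle replicate 1 (adjusted p = 0.0876). PLSCR1 rose by 0.53 and 0.44 in the lines, with a difference of 0.08 ± 0.09. The lines differ in passage (6 and 8), in the depth of knockdown and in the shRNA, which cannot be told apart from the target.

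**Figure D5:**
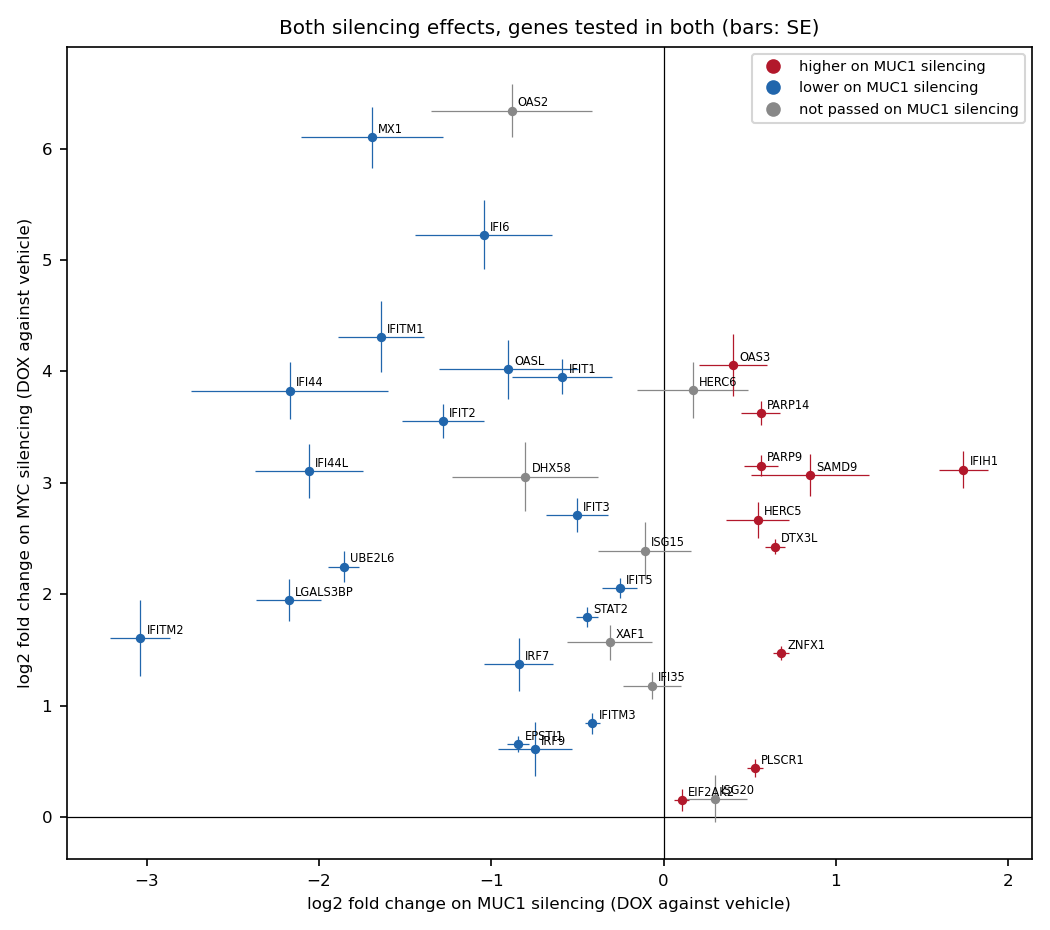
Log2 fold change on MUC1 silencing (x axis) against that on MYC silencing (y axis) for the 35 members tested in both (points). The 18 members lower on MUC1 and higher on MYC silencing fill the upper left, 9 that were higher in both lie in the upper right, and no member that passed both tests lies below 0 on the y axis.

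Control 3D cells and vehicle-treated tet-MUC1shRNA cells are both mammospheres at passage 6 without DOX, and their member levels show how far the lines differ before it is added. The targets themselves were lower in the tet line, MUC1 2.30-fold (adjusted p = 2.48e-09 from edgeR) and MYC 2.38-fold (adjusted p = 2.55e-12 from edgeR). Of 36 members tested, 13 were higher and 11 lower in the tet line, against 31.8% and 30.7% of all 18409 genes, and beyond a log2 fold change of 1.5 there were 2 higher and 1 lower, against 4.52% and 4.05%. The share of members that differed is thus close to that of all genes, and their median difference was -0.026. From 3D to tet-MUC1shRNA vehicle cells the summed markers went from 0.664 to 0.930 down to 0.0522 to 0.141 CPM (epithelial), from 0.388 to 0.703 up to 0.914 to 1.36 CPM (immune) and from 5.95 to 7.29 down to 4.03 to 4.23 CPM (endothelial). FN1 went from 6383 to 6983 up to 9965 to 11016 CPM and ZEB1 from 205 to 209 up to 306 to 339 CPM. VIM went from 1251 to 1365 down to 1076 to 1133 CPM, and the part of these shifts in the member differences was not tested. DESeq2 found 9 members higher and 10 lower. IFITM2 was higher by 3.56 ± 0.25, from 0.311, 0.683 and 0.915 CPM in 3D cells, and SAMD9 was lower by 2.53 ± 0.26, from 1.99, 2.50 and 2.84 CPM to 0.418, 0.377 and 0.472 CPM. UBE2L6 and IFITM3 were higher by 1.0 and 1.06, and EPSTI1 and ISG15 lower by 0.97 and 0.96. HERC6 was higher by 1.60. MX1 was higher by 0.99, a call lost in edgeR without vehicle replicate 1 (adjusted p = 0.101). IFI35, IFI44L, IFI6, IFIT1, IFITM1, OAS2 and OAS3 also lost their calls in edgeR without some library, with adjusted p of up to 0.359. STAT2 was higher by 0.59, and IRF7 (0.03 ± 0.22) and IRF9 (-0.02 ± 0.22) did not pass. Transduction, DMSO and culture history cannot be told apart here. In vehicle-treated tet-MYCshRNA cells STAT2 (15.2 CPM, group mean), UBE2L6 (4.12) and LGALS3BP (2.53) stood below their levels in 3D cells and in the other vehicle-treated line, a difference that was not tested.

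The low members need counts rather than CPM. IFI27 had no more than 0.139 CPM in any library, with 10 counts in 2D and 0 in 3D cells. That is 1.77-fold lower when the 0 is read as a floor of 3 read pairs over the group. Such a ratio leaves out the counting error of the higher group, so it is no lower bound. TRIM22 had 24 counts in DOX-treated and 0 in vehicle-treated tet-MYCshRNA cells, 5.38-fold higher against the same floor. RTP4 had 44 and 4 counts in the same groups, a ratio of 14.8 (3.64 to 130). BST2 (tetherin), which holds budding virus to the membrane, had 16 counts in vehicle-treated and 0 in DOX-treated tet-MUC1shRNA cells. Against the same floor that is 3.08-fold lower. None of these 4 passed the low-count filter in every comparison, and IFI27, TRIM22 and RTP4 passed it in none. MX2 had 22 and 10 counts in the tet-MUC1shRNA groups, a ratio of 2.54 whose interval (0.813 to 9.32) includes 1.

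The rest of the interferon pathway was described with a list of 92 other genes (ligands, receptors and kinases, sensors and adaptors, IRFs and other transcription regulators, negative regulators, interferon-gamma targets and further ISGs), 80 of which had a row. In 3D against 2D cells 16 of 61 tested were higher and 31 lower, on MUC1 silencing 17 of 62 were higher and 21 lower, with GO-203 14 of 59 were higher and 9 lower, and on MYC silencing 41 of 61 were higher and 9 lower. The shares were 26.2% higher and 50.8% lower in 3D cells (all genes 32% and 31.7%), 27.4% and 33.9% on MUC1 silencing (30.7% and 31.6%), 23.7% and 15.3% with GO-203 (11.1% and 12.9%), and 67.2% and 14.8% on MYC silencing (30.3% and 28.1%). On MUC1 silencing they were thus near those of all genes. Their median changes were -0.30, -0.080, 0.017 and 0.78, in each case closer to 0 than the members' median. IRF1, a transcription factor that binds ISRE-like sites, had log2 fold changes of -0.50, 0.70, 0.45 and 1.15 in the same order. Of 8 receptor and kinase genes tested, 7 were higher on MYC silencing, against 30.3% of all genes, including IFNAR1 (0.58), IFNAR2 (0.86), JAK1 (0.49) and TYK2 (0.78).

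Of the interferon-gamma targets 7 of 8 tested were lower in 3D cells, against 31.7% of all genes, with GBP5, GBP4 and IDO1 down by 8.08, 7.13 and 5.14 on the log2 scale. Among the further ISGs LAMP3, a lysosomal protein, rose by 5.17 in 3D cells, while TRIM5 fell by 5.79. Of 23 further ISGs tested 11 were higher and 8 lower there, against 32% and 31.7% of all genes. On MYC silencing the interferon-gamma targets GBP4 and GBP1 rose by 5.84 and 3.81, the double-stranded RNA receptor TLR3 rose by 4.86, and TRIM14, a mitochondrial adaptor, fell by 3.43. IDO1, the enzyme that breaks down tryptophan, rose by 4.11 on MUC1 silencing, where the DNA-sensing adaptor STING1 fell by 2.16. GBP1 and DDX60 rose by 1.13 and 0.99 with GO-203, and the cytidine deaminase APOBEC3G fell by 1.69. The interferon genes were near the limit of detection. Of 21 ligands listed 10 had a row, and except for IFNE, which reached 1.18 CPM, none exceeded 0.195 CPM in any library. IFNE, the only ligand tested, was lower by 2.41 in 3D than in 2D cells and higher by 1.51 on MUC1 silencing. It did not pass with GO-203 or on MYC silencing. IFNB1 had 7 counts over all 21 libraries.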

How the data were processed

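Stranded mRNA libraries of 21 BT-549 cultures were sequenced with paired-end reads. Per the labels, the authors used CASAVA 1.8.2, aligned reads to GRCh38 with STAR 2.7.3a, counted them per gene with featureCounts, and deposited raw counts without normalization. The annotation release, strand setting and handling of multimapping reads are not given in the sources used here. Genes without a value in a block of libraries (6498 in 2D and 3D, 7587 in GO-203, 4952 in tet-MUC1shRNA and 5761 in tet-MYCshRNA libraries) were read as 0, which touches 12 member values. In the 2D, 3D and tet blocks no listed gene had a total of 0, whereas in the GO-203 block 2851 did. Among genes with 1 to 20 counts, 67.0% to 71.1% of values per library were even, against 49.5% to 51.6% among genes with at least 1000 counts, as when both mates of a pair are counted. Counting intervals were therefore computed on read pairs (95%, exact binomial) and the floor for a count of 0 was 3 read pairs, or 6 counts, over the group. The intervals cover counting error only, and the floor covers that of the group with 0 counts but not that of the higher group.

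The 45 members and the pathway list were chosen with earlier results of these data known, and support no test of the lists. In R 4.3.3, edgeR 4.0.16 (filterByExpr, TMM, glmQLFit, glmQLFTest) was fitted to all genes of each pair of groups, and to the 12 tet libraries for the interaction, with Benjamini-Hochberg adjustment over all genes. Higher and lower mean an adjusted p below 0.1, as in the study's threshold, and SE is the log2 fold change over the root of F. Fold changes are named for up to 8 members with the largest rise and fall per comparison, for STAT2, IRF7 and IRF9, and for up to 4 pathway genes each way and IRF1. A further gene of this rule is not reported here and is left out of the pathway counts. Further members and IFNAR1, IFNAR2, JAK1 and TYK2 were named for their role or for a lost call after their values were seen. CPM levels were scaled by TMM over all libraries, and exon lengths and positions are those of GENCODE release 44. Alternatives were DESeq2 1.42.0, RLE factors, library size alone, scaling without mitochondrially encoded genes, a single fit of all 21 libraries, keeping genes with 1 count in total or only those reaching 10 counts per library, the replicate block, an adjusted p below 0.05, and leaving out each library in turn. The pipeline was tested on simulated data with 200 genes changed by a log2 of 2, and 99.5% to 100% were recovered with 0 to 3 unchanged genes called. The changed genes were drawn from well-covered ones and the dispersion was fixed for all genes. The recovery therefore does not describe members with low counts. Tables and figures used the packages pandas 2.3.3, scipy 1.17.1, matplotlib 3.10.9 and, in R, data.table (version 1.17.8).

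In all 21 replicate pairs the counts differed beyond sampling noise (chi-square per degree of freedom 4.36 to 52.8), so none was counted as a duplicate. Replicates are cultures of 1 line, and p-values measure the spread between cultures. No batch or date is given in the labels. Whether the replicate numbers pair the cultures is not given. The correlations of same-numbered deviations ran from -0.273 to 0.164, with those of GO-203 between 0.0483 and 0.164, and do not settle it. The main fits treat the cultures as unpaired.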

Additional observations from a re-analysis of the deposited data

Results flagged for a closer look

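The test of the difference between the MUC1 and MYC silencing effects marked 12 named genes, each with a lower response to MUC1 silencing. Among the members these were, on the log2 scale, BST2 (-9.46), SAMD9L (-7.96), MX1 (-7.83), RSAD2 (-7.47), OAS2 (-7.27), CMPK2 (-6.90), OAS1 (-6.60) and IFI6 (-6.29). The transcription factors STAT2 (-2.26), IRF7 (-2.22), IRF9 (-1.37) and IRF1 (-0.46) followed. BST2, SAMD9L, RSAD2, CMPK2 and OAS1 had been too low to test on MUC1 silencing alone. The value of BST2 rests on DOX-treated tet-MUC1shRNA libraries that all hold 0 counts, so its size depends on the fit and is no bound. Without tet-MUC1shRNA vehicle replicate 3, edgeR's interaction was -3.85 (adjusted p = 0.288) for OAS1 and -4.95 (adjusted p = 0.128) for CMPK2, both of which have few counts in that line. IRF1 rose in both lines, by 0.70 and 1.15.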

How the results depend on the processing

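Over the alternatives the balance of higher and lower members and their median kept their direction in each comparison except vehicle-treated tet-MUC1shRNA against 3D cells, and the cause of the shifts below was not tested unless stated. There the median lies near 0, and 13 higher and 11 lower members became 9 and 10 with DESeq2, 8 and 10 at an adjusted p below 0.05, 10 and 11 with at least 10 counts in every library, and 10 and 11 or 9 and 10 without vehicle replicate 1 or 3. Requiring at least 10 counts in every library, which removes low members, gave medians of -1.10 in 3D against 2D cells, 2.42 on MYC silencing and -2.35 in the interaction, 1 member called higher with GO-203 and 1 in tet-MUC1shRNA vehicle against 3D cells. In the latter comparison 4 were called higher with all 21 libraries in 1 fit. Library size alone gave a median of -0.28 on MUC1 silencing, 1 member (PLSCR1) higher in the interaction, and a median level of 1.007 CPM in DOX-treated tet-MUC1shRNA cells. IRF9 in 3D against 2D cells turned to -0.0359 with library size alone and -0.000771 with at least 10 counts. In the vehicle comparison IRF7 turned to -0.00697 (library size alone), -0.0097 (no filter) and -0.0106 (at least 10 counts), and IRF9 to 0.000404 with the replicate block. None of these had passed the test. Leaving out 1 library at a time gave 1 to 4 members called higher with GO-203, 2 to 4 in the vehicle comparison, medians of 2.88 to 3.17 on MYC silencing and -3.75 to -3.12 in the interaction. Among values that had not passed the test, it turned the signs of, among others, USP18 in the interaction (to 3.24), IRF9 in 3D against 2D cells (-0.0948 to 0.212), IRF7 with GO-203 (-0.241 to 0.146), and in the vehicle comparison IRF9 (-0.219 to 0.0841) and IRF7 (-0.181 to 0.208). Of 2056 alternative values of named genes, 1968 kept their direction and side of the threshold. With the replicate numbers as a block 7 members were higher and 31 lower in 3D cells, 10 and 18 on MUC1 silencing, 23 and 0 with GO-203, 38 and 0 on MYC silencing, 0 and 38 in the interaction, and 13 and 11 in the vehicle comparison. Low counts limit OAS1, CMPK2, RSAD2, BST2, IFI27, TRIM22 and RTP4.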
